A study of Homo sapiens with 10 samples.

Results

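The genes described here encode voltage-gated and potassium channels: the pore subunits of potassium, sodium and calcium channels, their auxiliary subunits, the HCN and CLCN families, and the TRPC, TRPM and TRPV cation channels. They were chosen by symbol, as the protein-coding autosomal gene rows whose names follow the patterns of these families, with antisense and intronic transcripts left out. Of 169 protein-coding rows that match, 6 lie on the X chromosome and 1 carries an antisense name, which leaves 162 genes of the 58051 gene rows in the table. RNA was sequenced from HAP1 cells, a near-haploid human line derived from the leukaemia line KBM-7, with and without a knockout of RBM4, an RNA-binding protein that acts in splicing and translation. The paired-end libraries came from 2 RBM4 knockout lines, clone 1 (n = 3) and clone 2 (n = 2), and from wild type HAP1 (n = 3), and held 33192095 to 55617525 counts each. A single-end pair, RBM4 knockout (41265510 counts) and wild type (44140706 counts), has no replicates, and the labels do not say from which clone its knockout library came. Each knockout line is 1 clone, the labels name no treatment, and nothing in the labels says that replicates were separate cultures, so the p-values reflect only how far these samples spread, which can be technical spread.

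Voltage-gated channels open when the membrane potential changes, through charged segments beside the pore, and carry the sodium, calcium and potassium currents of excitable cells. Potassium channels of other classes set the resting potential, and auxiliary subunits change the gating, stability and surface delivery of the pore they bind. In cells that do not fire action potentials, channels of these families act in volume control, ion supply to organelles, calcium entry and the cell cycle.

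RBM4 itself (ENSG00000173933, chromosome 11, 66638617 to 66668374, plus strand; gene coordinates are from GENCODE 29 on GRCh38 throughout) stood at 22.3, 22.9 and 24.5 CPM in clone 1, 25.3 and 25.8 CPM in clone 2, against 79.9, 79.8 and 78.7 CPM in wild type. All 5 knockout libraries lay below every wild type library (log2 fold change -1.71, SE 0.048, adjusted p = 1.11e-10), so the labels and the targeted gene go the same way, with RNA still counted in the knockouts. CPM are counts scaled to a common library size with TMM factors, and unless another comparison is named, a log2 fold change is the mean of both clones over wild type, from edgeR's quasi-likelihood test. A gene is called at a Benjamini-Hochberg adjusted p below 0.05 over all 20747 gene and repeat features that had enough counts to test, and a positive value means higher in the knockout. A ± value is the SD over 3 libraries of clone 1, 2 of clone 2 and 3 of wild type. GC content was correlated with each library's deviation from the gene's mean log2 CPM over the paired-end libraries. Only genes where that mean was 1 or more were used. The Spearman correlation was 0.39, -0.08 and 0.55 in clone 1, 0.53 and -0.11 in clone 2, and -0.56, -0.48 and -0.37 in wild type. It runs across genes, which are not independent replicates, and compares libraries with each other, not levels within a library. The labels also number the samples, 4, 11 and 12 in clone 1, 5 and 13 in clone 2, and 1 to 3 in wild type, so numbers 11 to 13 hold knockout libraries only. Values with a GC correction and within numbers 1 to 5 are given for the main calls that they ended.

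The regions around the starts of 4 genes are shown because these genes had the smallest adjusted p among those that rose and those that fell (SCN9A and KCNK2) and the widest gaps between the clones (KCNQ5 and KCNJ2). Each is 300 bases of RefSeq sequence on GRCh38.p14, from 250 bases before the start to 50 after it, printed 5′ to 3′ on the gene's strand. Capitals mark GGGCGG (a GC box) and CCAAT on either strand, searched together with TATAAA, of which there was no match in these 4 windows. SCN9A is at chr2:166375895-166376194 (minus strand), KCNK2 at chr1:215005292-215005591 (plus strand, the more upstream of its 2 windows), KCNQ5 at chr6:72621814-72622113 (plus strand) and KCNJ2 at chr17:70169282-70169581 (plus strand).
SCN9A: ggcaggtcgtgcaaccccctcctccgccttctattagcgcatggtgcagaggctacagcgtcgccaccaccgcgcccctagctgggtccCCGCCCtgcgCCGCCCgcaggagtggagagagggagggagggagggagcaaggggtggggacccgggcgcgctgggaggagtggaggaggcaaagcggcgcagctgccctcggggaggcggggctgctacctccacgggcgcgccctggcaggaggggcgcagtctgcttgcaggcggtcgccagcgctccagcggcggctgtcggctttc
KCNK2: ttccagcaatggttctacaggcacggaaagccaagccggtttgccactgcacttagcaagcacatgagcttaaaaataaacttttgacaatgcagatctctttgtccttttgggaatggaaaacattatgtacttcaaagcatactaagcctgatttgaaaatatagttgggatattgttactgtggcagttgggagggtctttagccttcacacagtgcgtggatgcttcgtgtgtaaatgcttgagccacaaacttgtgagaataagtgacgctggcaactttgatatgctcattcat
KCNQ5: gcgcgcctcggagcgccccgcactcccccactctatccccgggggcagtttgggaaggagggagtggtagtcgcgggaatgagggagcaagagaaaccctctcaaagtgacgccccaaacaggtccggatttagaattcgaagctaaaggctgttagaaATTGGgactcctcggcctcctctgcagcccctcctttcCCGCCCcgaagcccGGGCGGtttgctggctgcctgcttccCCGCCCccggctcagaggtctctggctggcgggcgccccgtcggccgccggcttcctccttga
KCNJ2: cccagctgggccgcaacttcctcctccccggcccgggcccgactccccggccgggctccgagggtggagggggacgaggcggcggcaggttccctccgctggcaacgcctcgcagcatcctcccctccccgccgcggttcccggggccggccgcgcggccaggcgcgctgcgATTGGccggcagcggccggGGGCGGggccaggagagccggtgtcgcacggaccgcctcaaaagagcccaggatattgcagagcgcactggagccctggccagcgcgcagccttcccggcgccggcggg
The windows of SCN9A, KCNQ5 and KCNJ2 are 73.3%, 65.7% and 78.0% GC with 28, 24 and 39 CG dinucleotides, and that of KCNK2 is 42.0% GC with 5. Over all 35116 windows in the RefSeq table, 45.0% hold GGGCGG, 34.6% CCAAT and 11.5% TATAAA on either strand, and the median number of CG dinucleotides is 14. Of the 162 genes, 117 had a window by symbol. The 92 windows of genes with enough counts to test had a median of 23 CG dinucleotides and the 91 windows of genes without had a median of 7. The motif matches are a description of these letters only.

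Of the 162 genes, 80 had enough counts to be tested and 82 did not. Among the 82, 24 had no count in any paired-end library, which allows up to 0.00895 CPM over the 8 libraries together (3 counts, counting error only). Another 38 had 1 to 10 counts in all, and 20 had 11 to 51, with KCNE2, a small single-pass potassium channel subunit, the highest. A gene that is high in 1 group only can pass the filter through that group, so the counts below describe the 80 and not the whole family.

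Per kilobase of merged exon, the wild type level was highest for CLCN3, an endosomal chloride-proton exchanger, at 11.9 ± 0.19 CPM per kb (SD, n = 3 here and below). KCNK2, a mechanosensitive tandem-pore potassium channel, at 9.49 ± 0.47 and CACNA2D2, an alpha2delta subunit of calcium channels, at 9.22 ± 0.64 followed, and differed from each other by less than their SD. The lysosomal exchanger CLCN7 (8.19 ± 0.28) and the silent potassium channel subunit KCNS3 (8.10 ± 0.44) were also within their SD of each other. TRPM7, a channel fused to a kinase that takes up magnesium, stood at 7.10 ± 0.15 CPM per kb. Lower levels were those of the chloride channel CLCN2 (4.64 ± 0.084), the pacemaker-type channel HCN3 (4.39 ± 0.37) and CLCN6 of late endosomes (4.31 ± 0.16). The spread of HCN3 overlapped those of CLCN2 and CLCN6, which did not overlap each other. These 9 genes made up 48.4% of the summed wild type level of all 162 genes (139 CPM per kb), 36 genes reached 1 CPM per kb and 60 reached 0.1. Of the 9, KCNK2 and CACNA2D2 are among the genes called below, and the other 7 were not called in any comparison, with log2 fold changes from -0.15 (TRPM7) to 0.15 (CLCN7). The signs of 6 of those 7, all but KCNS3, turned under at least 1 alternative processing. TRPM7 was called lower with a term for the sample numbers (-0.29, adjusted p = 0.000967) and stood at 0.00 with GC correction.

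**Figure D1:**
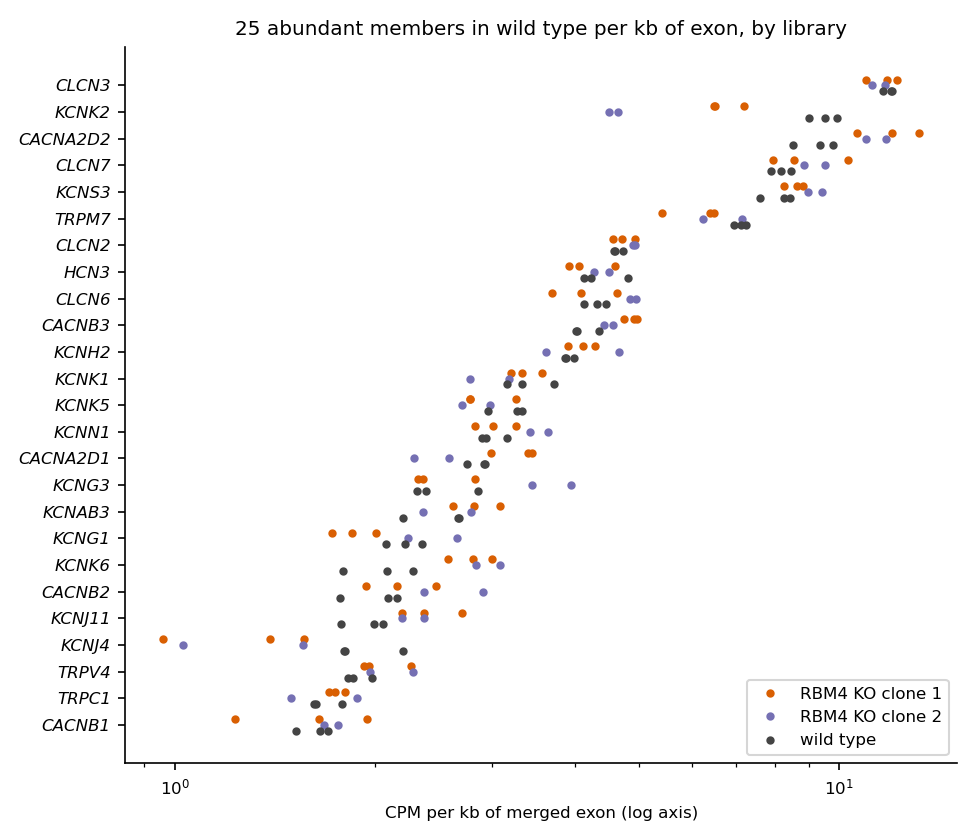
Level per kilobase of merged exon (CPM per kb, log axis) of 25 genes with high wild type levels, 1 point per paired-end library, in clone 1, clone 2 and wild type. The points of most genes overlap between groups, while those of KCNK2 and KCNJ4 lie lower in the knockout libraries and those of CACNA2D2, CACNB3 and KCNK6 higher.

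In the mean of both clones, 29 of the 80 tested genes were called, 21 higher and 8 lower. That is 36.2% of them, against 18.0% of all tested features, and by direction 26.2% higher and 10.0% lower, against 9.87% and 8.09% of all features. The median log2 fold change was 0.21 over the 80 genes and 0.00 over all features. In clone 1, 19 genes were called (23.8%, against 16.0% of all features), 16 of the 80 higher (against 9.37% of all features) and 3 lower (against 6.64%). In clone 2, 25 were called (31.2%, against 10.8%), 19 of the 80 higher (against 6.18% of all features) and 6 lower (against 4.59%). Both clone comparisons use the same wild type libraries. In 19 of the 80 genes every knockout library lay above every wild type library (23.8%, against 13.5% of all features), and in 6 every knockout library lay below (7.5%, against 11.8%). With GC correction the calls were 13 higher (against 7.61% of all features) and 8 lower (7.67%) in the mean of the clones, and 9 higher (6.82%) and 8 lower (6.55%) in clone 1. Within sample numbers 1 to 5 they were 13 higher (against 10.8% of all features) and 4 lower (12.3%) in the mean. There were 17 calls in the mean without wild type replicate 1 (against 8.97% of all features) and 18 without wild type replicate 2 (10.7%). KCNJ2 and SCN2B, which passed the count filter only through clone 2, are among the calls in clone 2 and between the clones. SCN2B is also among the calls in the mean.

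**Figure D2:**
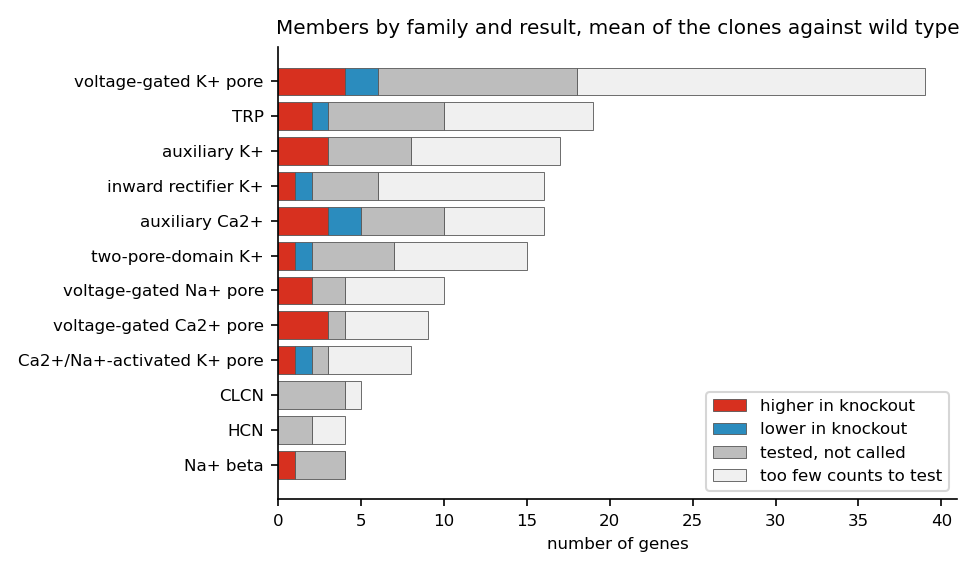
Number of genes by family, divided into those higher in the knockout, lower in the knockout, tested but not called, and with too few counts to test, for the mean of both clones against wild type. The voltage-gated potassium pore subunits are the largest family, with 39 genes of which 18 were tested, and the HCN and CLCN families hold no called gene.

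Of 10 sodium channel pore genes, 4 were tested and 2 rose. SCN9A (ENSG00000169432, chromosome 2, 166195185 to 166376001, minus strand) encodes the threshold sodium channel of pain-sensing neurons. It stood at 17.7, 20.4 and 19.0 CPM in clone 1, 34.8 and 35.0 CPM in clone 2, against 7.46, 7.33 and 8.03 CPM in wild type. The 3 groups do not overlap, with clone 2 highest and wild type lowest (log2 fold change 1.76, SE 0.073, adjusted p = 2.74e-09). The rise was 1.32 in clone 1 and 2.20 in clone 2 on the log2 scale, and the difference between the clones was itself called (log2 fold change 0.87, SE 0.079, adjusted p = 1.63e-05). In the single-end pair SCN9A had 1350 counts in the knockout and 116 in wild type. Its exons share 8.17% of their bases with SCN1A-AS1 on the other strand, a gene with 2 counts over the 8 libraries. SCN8A and SCN1A, both neuronal sodium channels, were not called (0.08, adjusted p = 0.599 and 0.38, adjusted p = 0.699), and 6 pore genes, with SCN2A and SCN3A among them, were not tested.

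The beta subunits bind the sodium pore and modify its gating. SCN2B, called higher on few counts, stood at 0.242, 0.235 and 0.197 CPM in clone 1, 0.891 and 0.574 CPM in clone 2, against 0.143, 0.143 and 0.243 CPM in wild type. Clone 2 lay above both other groups, and clone 1 overlapped wild type (log2 fold change 1.18, SE 0.37, adjusted p = 0.0401). SCN2B passed the count filter only through clone 2, so its calls in clone 2, between the clones and in the mean are a description. Its log2 fold change was 2.02 in clone 2 (adjusted p = 0.00468) and 0.34 in clone 1 (adjusted p = 0.635), and the call in the mean ended under 9 of 17 alternatives, GC correction among them (0.0605). SCN4B was called in clone 2 alone (0.79, adjusted p = 0.047), with 0.39 in clone 1 and no call of the difference between the clones (adjusted p = 0.666), and its call ended under 9 of 17 alternatives, GC correction among them (0.0822). SCN3B was at -0.01 and not called.

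Of 9 calcium channel pore genes, 4 were tested and 3 were called, all higher, and these 3 are the T-type genes, which open at small depolarizations. CACNA1G (ENSG00000006283, chromosome 17, 50561068 to 50627474, plus strand) stood at 0.906, 1.52 and 1.19 CPM in clone 1, 1.21 and 1.42 CPM in clone 2, against 0.380, 0.514 and 0.800 CPM in wild type. CACNA1I (ENSG00000100346, chromosome 22, 39570753 to 39689737, plus strand) stood at 1.09, 0.975 and 1.41 CPM in clone 1, 1.16 and 1.53 CPM in clone 2, against 0.570, 0.400 and 0.752 CPM in wild type. CACNA1H (ENSG00000196557, chromosome 16, 1153121 to 1221772, plus strand) stood at 5.05, 4.42 and 5.11 CPM in clone 1, 4.63 and 3.74 CPM in clone 2, against 3.25, 3.20 and 3.40 CPM in wild type. In each of the 3 genes all 5 knockout libraries lay above all 3 wild type libraries. The log2 fold changes were 1.17 for CACNA1G (SE 0.27, adjusted p = 0.0085), 1.10 for CACNA1I (SE 0.25, adjusted p = 0.00749) and 0.45 for CACNA1H (SE 0.12, adjusted p = 0.0167). Transcripts of these genes are 61.3%, 61.6% and 65.6% GC, and with GC correction the values were 1.03 (adjusted p = 0.0233), 0.96 (0.017) and 0.29 (0.0597). The call of CACNA1H therefore ended with GC correction, and it also ended when wild type replicate 1 or 2, or clone 2 replicate 1, was left out. That of CACNA1G ended without wild type replicate 1 (0.0626) and within sample numbers 1 to 5 (0.0693). The single-end pair had 61 counts in the knockout and 42 in wild type for CACNA1G, 67 and 9 for CACNA1I, and 130 and 141 for CACNA1H. CACNA1H is the 1 called gene of the 29 whose single-end value pointed the other way (log2 ratio -0.02). The L-type pore gene CACNA1D was not called (0.39, adjusted p = 0.185), although every knockout library lay above every wild type library, and it shares 6.8% of its exon bases with CHDH on the other strand. The pore genes CACNA1A, CACNA1B, CACNA1C, CACNA1E and CACNA1S were not tested.

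Of 16 auxiliary calcium channel genes, 10 were tested, 3 rose and 2 fell. CACNA2D3 (ENSG00000157445, chromosome 3, 54122547 to 55074557, plus strand), an alpha2delta subunit that brings calcium channels to the surface, stood at 1.69, 1.99 and 2.05 CPM in clone 1, 2.10 and 2.72 CPM in clone 2, against 0.902, 0.599 and 0.606 CPM in wild type. All knockout libraries lay above all wild type libraries, and both clones were called (log2 fold change 1.60, SE 0.20, adjusted p = 0.000106). The more abundant CACNA2D2 averaged 75.5 ± 8.1 CPM in clone 1, 71.9 ± 3.5 CPM in clone 2 and 58.3 ± 4.0 CPM in wild type (log2 fold change 0.34, SE 0.071, adjusted p = 0.00541), and its call ended with GC correction (adjusted p = 0.0579). CACNA2D1, the binding site of gabapentin, was at 27.0, 30.6 and 31.1 CPM in clone 1, 20.7 and 23.3 CPM in clone 2, against 26.3, 26.4 and 24.9 CPM in wild type. It was called lower in clone 2 than in clone 1 (by -0.43 on the log2 scale, SE 0.082, adjusted p = 0.0122). Without corrections it had no call against wild type in either clone or in their mean. With GC correction clone 1 was called higher (0.335, adjusted p = 0.00297) and clone 2 was not called (-0.105, 0.415). With a term for the sample numbers clone 2 was called lower (-0.33, adjusted p = 0.0059) and clone 1 was not called (0.068, 0.565).

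Among the cytoplasmic beta subunits, which chaperone the pore, CACNB4 fell and CACNB3 was called slightly higher. CACNB4 (ENSG00000182389, chromosome 2, 151832768 to 152099475, minus strand) stood at 7.89, 8.81 and 9.63 CPM in clone 1, 9.19 and 9.54 CPM in clone 2, against 13.7, 13.3 and 12.3 CPM in wild type, with every knockout library below every wild type library (log2 fold change -0.53, SE 0.083, adjusted p = 0.000671). It shares 5.98% of its exon bases with AC068547.1 on the same strand. CACNB3 averaged 34.8 ± 0.81 CPM in clone 1, 32.2 ± 0.69 CPM in clone 2 and 29.6 ± 1.4 CPM in wild type (log2 fold change 0.18, SE 0.053, adjusted p = 0.0335), and its call ended under 11 of 18 alternatives, with GC correction (adjusted p = 0.63) and numbers 1 to 5 alone (0.0651) among them. CACNB1 and CACNB2 were at 0.04 and 0.26 and not called. CACNG7, a transmembrane protein of the family that regulates AMPA receptors, averaged 3.02 ± 0.44 CPM in clone 1, 3.29 ± 0.78 CPM in clone 2 and 4.50 ± 0.59 CPM in wild type (log2 fold change -0.53, SE 0.15, adjusted p = 0.0244), a call that ended within sample numbers 1 to 5 (0.144) and when wild type replicate 1 or 3, or clone 2 replicate 2, was left out. CACNG4 and CACNG8 were tested and not called, and CACNA2D4, CACNG1, CACNG2, CACNG3, CACNG5 and CACNG6 were not tested.

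**Figure D3:**
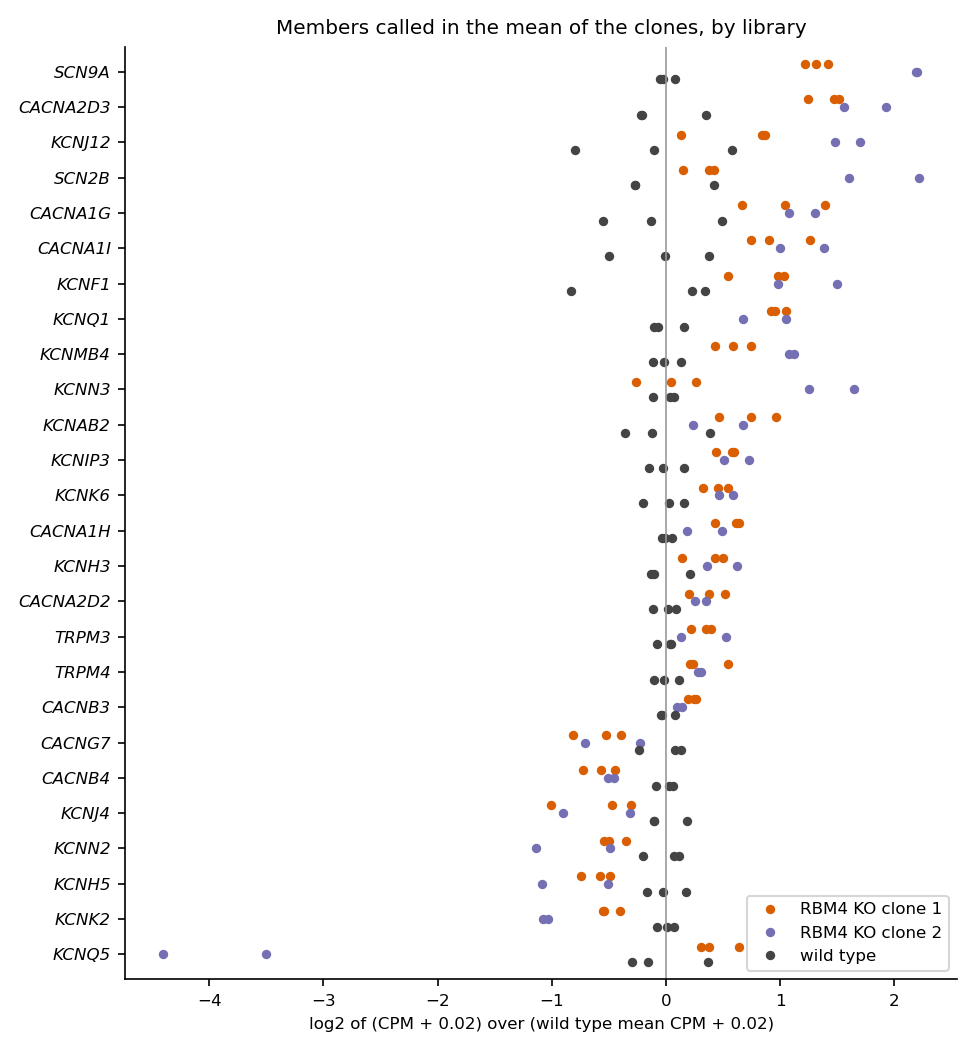
The 26 genes described as called in the mean of both clones, in order of fold change, as the log2 of each library's CPM over the wild type mean (0.02 CPM added to both), with 1 point per library of clone 1, clone 2 and wild type. The groups do not overlap wild type in 14 of the 19 higher and 5 of the 7 lower genes plotted. These genes were chosen as called on the same libraries, so such separation is partly built in and is no separate support. The KCNQ5 points of clone 2 lie far below those of clone 1 and wild type.

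Potassium channel pore genes that open on depolarization form the largest family, with 39 genes, of which 18 were tested, 4 were called higher and 2 lower. KCNQ1 (ENSG00000053918, chromosome 11, 2444684 to 2849110, plus strand), which carries the slow repolarizing current of the heart and potassium recycling in epithelia, stood at 1.99, 2.13 and 1.95 CPM in clone 1, 2.13 and 1.64 CPM in clone 2, against 0.950, 0.970 and 1.14 CPM in wild type. Every knockout library lay above every wild type library, and both clones were called (log2 fold change 0.93, SE 0.17, adjusted p = 0.00197). The clone 2 call ended without clone 2 replicate 1 (0.187) or wild type replicate 1 (0.0599), and in the replicate block with GC correction (0.0675). KCNF1, a subunit that forms no channel alone, averaged 1.16 ± 0.21 CPM in clone 1, 1.53 ± 0.39 CPM in clone 2 and 0.626 ± 0.25 CPM in wild type (log2 fold change 1.05, SE 0.27, adjusted p = 0.0161). KCNH3, of the ether-a-go-go family, averaged 4.49 ± 0.57 CPM in clone 1, 4.92 ± 0.64 CPM in clone 2 and 3.48 ± 0.49 CPM in wild type (log2 fold change 0.43, SE 0.13, adjusted p = 0.0414), with overlapping groups. The call of KCNH3 ended with GC correction (adjusted p = 0.158), and that of KCNF1 ended without wild type replicate 2 (0.0735) or clone 2 replicate 1 (0.0533).

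KCNQ5 (ENSG00000185760, chromosome 6, 72621792 to 73198851, plus strand), a subunit of the M-current that damps firing, was nearly lost in clone 2 and not in clone 1. It stood at 1.15, 1.21 and 1.46 CPM in clone 1, 0.0248 and 0.0638 CPM in clone 2, against 0.831, 1.20 and 0.752 CPM in wild type. Both clone 2 libraries lay far below all others, and the clone 1 libraries overlapped those of wild type. Over its libraries, clone 2 had 4 counts, against 164 in clone 1 and 108 in wild type. Scaled by library size, the level in clone 2 was 0.0501 times that of wild type (95% interval 0.0134 to 0.132) and 0.036 times that of clone 1 (0.00969 to 0.0939), intervals that cover counting error only. The fitted log2 fold change was -4.25 in clone 2 (adjusted p = 6.33e-05) and 0.47 in clone 1 (adjusted p = 0.212), and the difference between the clones was called (adjusted p = 3.45e-05). The mean of the clones (-1.89, adjusted p = 0.00127) describes neither clone, and with all knockout libraries as 1 group the call was lost (adjusted p = 0.895). The single-end knockout had 3 counts of KCNQ5 and the single-end wild type 33.

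KCNH5, another ether-a-go-go gene, averaged 1.23 ± 0.11 CPM in clone 1, 1.09 ± 0.31 CPM in clone 2 and 1.87 ± 0.23 CPM in wild type (log2 fold change -0.69, SE 0.18, adjusted p = 0.0162), with every knockout library below every wild type library. Its call ended with GC correction (0.0591) and within sample numbers 1 to 5 (0.101). The subunit gene KCNG3, silent on its own, was at 9.03, 8.88 and 10.8 CPM in clone 1, 15.1 and 13.2 CPM in clone 2, against 8.86, 10.96 and 9.14 CPM in wild type. Clone 2 lay above both other groups, which overlapped, and it was called against wild type (log2 fold change 0.55, SE 0.12, adjusted p = 0.00971) and against clone 1 (0.56, adjusted p = 0.0263). KCND2, of the A-type current, was called in clone 2 (0.38, adjusted p = 0.0435), where clone 1 was at 0.08 and the difference between the clones was not called (adjusted p = 0.326), and its call ended under 8 of 17 alternatives. The KCNG3 call against wild type ended without wild type replicate 1 (0.0536) or clone 2 replicate 1 (0.115). KCNC1, KCNC4, KCND3, KCNG1, KCNH2, KCNH4, KCNH8 and KCNS3 were tested and, without corrections, not called in any comparison. With GC correction KCNG1 was called lower in clone 1 (-0.421, adjusted p = 0.00239) and higher in clone 2 than in clone 1 (0.429, adjusted p = 0.0116). With a term for the sample numbers neither was called (adjusted p = 0.307 and 0.0673). Those not tested include KCNA1, KCNA10, KCNA2, KCNA3, KCNA4, KCNA5, KCNA6, KCNA7, KCNB2, KCNC2, KCNG2, KCNG4, KCNH1, KCNH6, KCNH7, KCNQ3, KCNS1, KCNS2, KCNV1 and KCNV2.

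Of 15 tandem-pore potassium channel genes, which carry background currents, 7 were tested, 1 rose and 1 fell. KCNK2 (ENSG00000082482, chromosome 1, 215005775 to 215237093, plus strand), the most abundant of them per kilobase in wild type, stood at 28.1, 25.5 and 25.4 CPM in clone 1, 18.2 and 17.6 CPM in clone 2, against 38.8, 35.2 and 37.3 CPM in wild type. The groups do not overlap, with clone 2 lowest and wild type highest (log2 fold change -0.78, SE 0.058, adjusted p = 1.01e-06). On the log2 scale clone 1 differed from wild type by -0.50 and clone 2 by -1.06, and the gap between the clones was called (log2 fold change -0.56, SE 0.075, adjusted p = 0.000784). The single-end pair had 753 counts in the knockout and 1677 in wild type. The summed level of the family was 16.2 CPM per kb in clone 1 and 13.7 in clone 2, against 18.4 in wild type. KCNK6, found in endolysosomes and the plasma membrane, stood at 15.9, 17.3 and 18.5 CPM in clone 1, 19.0 and 17.5 CPM in clone 2, against 11.04, 12.9 and 14.1 CPM in wild type, and every knockout library lay above every wild type library (log2 fold change 0.49, SE 0.088, adjusted p = 0.00194). KCNK1, KCNK12, KCNK13, KCNK15 and KCNK5 were not called, and KCNK10, KCNK16, KCNK17, KCNK18, KCNK3, KCNK4, KCNK7 and KCNK9 were not tested.

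Of 16 inward rectifier genes, which hold the resting potential, 6 were tested. KCNJ2 (ENSG00000123700, chromosome 17, 70168673 to 70180048, plus strand), the main strong rectifier of heart and skeletal muscle, was detected almost only in clone 2. It stood at 0, 0.0181 and 0 CPM in clone 1, 0.668 and 0.978 CPM in clone 2, against 0.0237, 0 and 0.0243 CPM in wild type, or 1 count in clone 1, 73 in clone 2 and 2 in wild type, and it passed the filter through clone 2. The level in clone 2 was 49.4 times that of wild type (95% interval 13.2 to 416) and 108 times that of clone 1 (18.7 to 4310), counting error only. It was tested only because clone 2 is high, so its calls in clone 2 (adjusted p = 9.31e-05) and between the clones (adjusted p = 0.000121) are a description, and it was not called in the mean (adjusted p = 0.266). The single-end knockout had 29 counts of KCNJ2 and the single-end wild type 0. KCNJ2 shares 3.32% of its exon bases with KCNJ2-AS1 on the other strand, which had 13 counts over the 8 libraries.

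KCNJ12, another strong rectifier, averaged 0.422 ± 0.12 CPM in clone 1, 0.830 ± 0.088 CPM in clone 2 and 0.262 ± 0.13 CPM in wild type (log2 fold change 1.19, SE 0.36, adjusted p = 0.035), with overlapping groups. Its reads can be shared with the near-identical KCNJ18, so its value is uncertain, and its call ended under 11 of 18 alternatives, GC correction among them (0.0674). KCNJ4, a rectifier of brain and heart, averaged 2.70 ± 0.64 CPM in clone 1, 2.67 ± 0.77 CPM in clone 2 and 3.999 ± 0.48 CPM in wild type (log2 fold change -0.59, SE 0.18, adjusted p = 0.0361), with every knockout library below every wild type library. That call ended within sample numbers 1 to 5 (0.0796) and without any 1 of the wild type replicates. KCNJ11, the pore of the ATP-sensitive channel, was not called (0.27, adjusted p = 0.0808), and neither were KCNJ5 and KCNJ14. Not tested were KCNJ1, KCNJ10, KCNJ13, KCNJ15, KCNJ16, KCNJ18, KCNJ3, KCNJ6, KCNJ8 and KCNJ9.

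Of 8 calcium- or sodium-activated potassium channel genes, the 3 small-conductance genes KCNN1, KCNN2 and KCNN3 were tested. KCNN3 stood at 1.15, 0.920 and 1.33 CPM in clone 1, 3.52 and 2.68 CPM in clone 2, against 1.14, 1.03 and 1.16 CPM in wild type. Clone 2 lay above both other groups, while clone 1 overlapped wild type. The value was 1.47 in clone 2 (adjusted p = 0.000388), 0.01 in clone 1 (adjusted p = 0.979) and 1.46 between the clones (adjusted p = 0.00114). Its call in the mean (0.74, adjusted p = 0.0133) rests on clone 2 and ended with all knockout libraries as 1 group (0.293). KCNN2 averaged 1.54 ± 0.11 CPM in clone 1, 1.23 ± 0.39 CPM in clone 2 and 2.12 ± 0.25 CPM in wild type (log2 fold change -0.63, SE 0.17, adjusted p = 0.0232), with all knockout libraries below wild type, a call that ended within sample numbers 1 to 5 (0.138). KCNN1 was not called (0.12, adjusted p = 0.292). KCNMA1, KCNN4, KCNT1, KCNT2 and KCNU1 were not tested, the large-conductance pore gene KCNMA1 among them with 12 counts in all.

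Of 17 auxiliary potassium channel genes, 8 were tested, 3 rose and 0 fell. KCNMB4 (ENSG00000135643, chromosome 12, 70366276 to 70434292, plus strand), a beta subunit of the large-conductance channel, stood at 10.9, 9.75 and 8.71 CPM in clone 1, 14.1 and 13.7 CPM in clone 2, against 7.08, 5.96 and 6.38 CPM in wild type. The 3 groups do not overlap, with clone 2 highest (log2 fold change 0.85, SE 0.096, adjusted p = 4.64e-05), and the clones differed (log2 fold change 0.51, SE 0.11, adjusted p = 0.0275). KCNIP3, a calcium-binding protein that partners the A-type pore and also binds DNA, stood at 9.31, 8.41 and 9.43 CPM in clone 1, 10.3 and 8.86 CPM in clone 2, against 6.10, 5.62 and 6.94 CPM in wild type. Every knockout library lay above every wild type library, and both clones were called (log2 fold change 0.58, SE 0.10, adjusted p = 0.00145), that of clone 2 not without clone 2 replicate 1 (0.0711). KCNAB2, a cytoplasmic subunit with an aldo-keto reductase fold, averaged 2.53 ± 0.44 CPM in clone 1, 2.10 ± 0.45 CPM in clone 2 and 1.51 ± 0.41 CPM in wild type (log2 fold change 0.61, SE 0.20, adjusted p = 0.0495), with overlapping groups. It shares 1.16% of its exon bases with NPHP4 on the other strand, and its call ended under 11 of 18 alternatives, with GC correction (0.153) and numbers 1 to 5 alone (0.331) among them. KCNE3, a small subunit of epithelial potassium channels, was at 0.151, 0 and 0.0247 CPM in clone 1, 0.0990 and 0.0213 CPM in clone 2, against 0.119, 0.285 and 0.315 CPM in wild type. Its log2 fold change of -2.12 was not called (adjusted p = 0.0594). KCNE3 passed the count filter only through wild type, so this value is a description. KCNAB3, KCNE1, KCNIP2 and KCNRG were not called, and the reads of KCNE1 can be shared with its near-identical copy KCNE1B. Not tested were KCNAB1, KCNE1B, KCNE2, KCNE4, KCNIP1, KCNIP4, KCNMB1, KCNMB2 and KCNMB3.

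**Figure D4:**
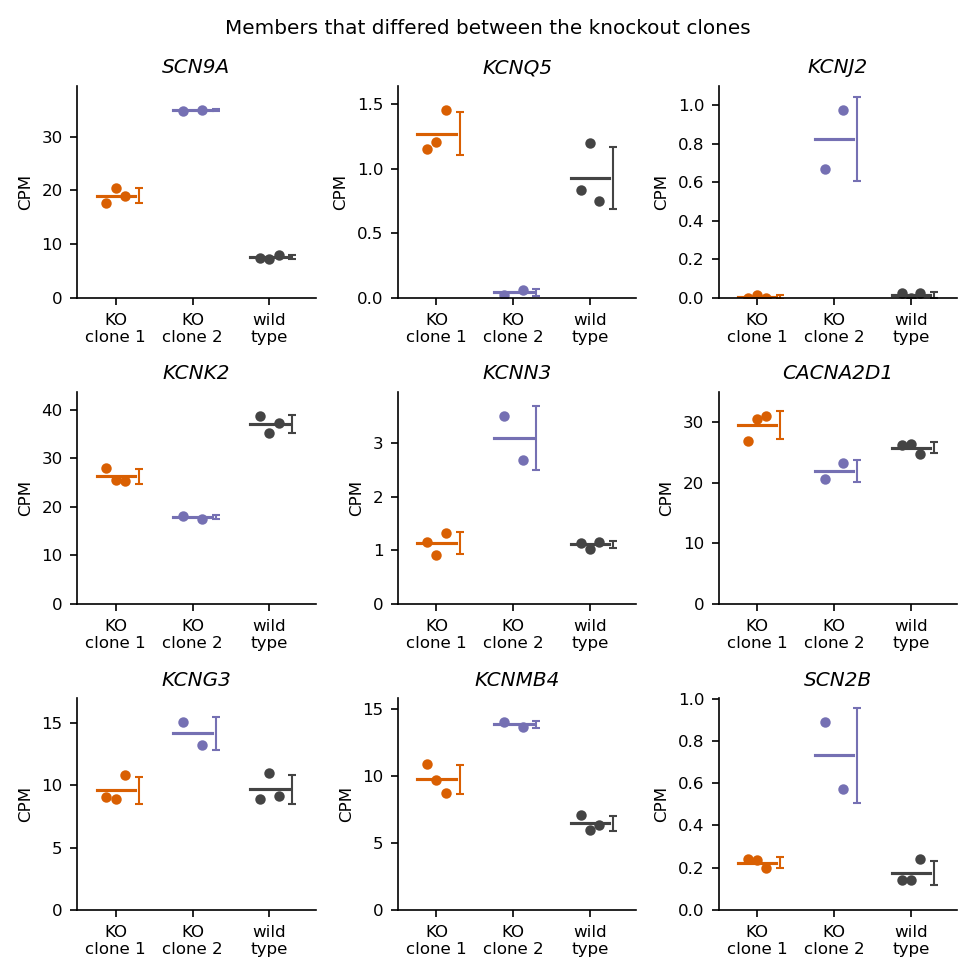
CPM of the 9 genes called between the clones, 1 point per library, with the mean (line) and SD (bar) of clone 1, clone 2 and wild type. KCNQ5 is near 0 in clone 2 and KCNJ2 is near 0 in clone 1 and wild type, while in SCN9A and KCNMB4 clone 2 lies above clone 1 and clone 1 above wild type.

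Between the clones, 9 of the 80 genes were called (11.2%, against 2.09% of all features), 6 higher in clone 2 (7.5%, against 1.1%) and 3 lower (3.75%, against 0.993%). Of the 9, SCN9A, KCNMB4 and KCNK2 were called in the same direction in both clones, with the larger change in clone 2. In KCNQ5, KCNJ2, KCNN3, KCNG3 and SCN2B clone 2 was called against wild type and clone 1 was not, and CACNA2D1 was called in neither. Within sample numbers 1 to 5, where each clone has 1 library, 4 were called (against 1.06% of all features), and without clone 2 replicate 1 there were 5 (1.31%). Within numbers 1 to 5 the calls of KCNMB4, CACNA2D1, KCNG3, SCN2B and KCNJ2 ended. Their log2 differences there were 0.363, -0.396, 0.729, 1.859 and 7.681, in that order. The calls of KCNMB4, SCN2B, KCNG3 and CACNA2D1 each ended without clone 2 replicate 1 (adjusted p = 0.188, 0.466, 0.255 and 0.197), and over all alternatives that of KCNMB4 ended under 6 of 17 and that of SCN2B under 9 of 17.

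Of 19 TRPC, TRPM and TRPV genes, 10 were tested, 2 rose and 1 fell. TRPM3, a heat- and steroid-activated channel, stood at 30.2, 34.1 and 33.1 CPM in clone 1, 28.5 and 37.3 CPM in clone 2, against 24.6, 26.6 and 26.8 CPM in wild type, with every knockout library above every wild type library (log2 fold change 0.33, SE 0.083, adjusted p = 0.0145). TRPM4, a calcium-activated channel for sodium and potassium, averaged 12.5 ± 1.7 CPM in clone 1, 12.1 ± 0.17 CPM in clone 2 and 9.88 ± 0.74 CPM in wild type (log2 fold change 0.32, SE 0.094, adjusted p = 0.032). The call of TRPM4 ended with GC correction (0.174) and within sample numbers 1 to 5 (0.0573), and that of TRPM3 within sample numbers 1 to 5 (0.0694). TRPC1, TRPM6, TRPM7, TRPV1, TRPV2, TRPV3 and TRPV4 were not called, with log2 fold changes from -0.15 (TRPM7) to 0.71 (TRPV3, a warmth-sensing channel of skin). Not tested were 9 genes, TRPM8 and TRPV6 among them.

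The intracellular and surface CLCN genes and the HCN genes were the families without a call in any comparison, although CLCN7 was called higher in the mean with the replicate block (0.175, adjusted p = 0.0499). CLCN2, CLCN3, CLCN6 and CLCN7 lay between -0.04 and 0.15. In CLCN7 the SE of the log2 fold change was 0.075, and in the other 3 it was from 0.049 to 0.067. HCN2 and HCN3 were at 0.15 and -0.03, and the genes of both families not named here were not tested. CLCN2 shares 24.7% of its exon bases with FAM131A on the other strand.

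Base composition is given by direction of the call, with no test between directions. The median GC of the transcripts was 60.4% in the 21 higher genes, 46.4% in the 8 lower and 55.5% in the 80 tested, and 11 of the 21 higher, 2 of the 8 lower and 23 of the 80 tested genes were at 60% or more. Over the 80 genes, which share libraries, log2 fold change and GC had a Spearman correlation of 0.18, and of -0.02 after a GC correction. With that correction 21 genes were called in the mean of the clones, 19 of them also called without it. Among those that lost their call were CACNA1H, CACNA2D2, CACNB3, KCNAB2, KCNH3, KCNH5, KCNJ12, SCN2B and TRPM4, while KCND2 (0.30, adjusted p = 0.0263) and the tandem-pore gene KCNK5 (-0.28, adjusted p = 0.0187) gained one. Of the 26 calls in the mean described above, 9 were kept under every alternative tried: SCN9A, CACNA2D3, KCNQ1, CACNA1I, KCNMB4, KCNIP3 and KCNK6, which rose, and KCNK2 and CACNB4, which fell. Among the 26, leaving out wild type replicate 1 ended the calls of CACNA1G, CACNA1H, CACNB3, CACNG7, KCNJ12, KCNJ4, KCNN2, KCNN3, SCN2B, TRPM3 and TRPM4. Without wild type replicate 2 those of CACNA1H, CACNB3, KCNAB2, KCNF1, KCNH3, KCNH5, KCNJ4, KCNN2, KCNN3, SCN2B and TRPM4 ended. Without wild type replicate 3 those of CACNG7, KCNAB2, KCNH3, KCNJ12 and KCNJ4 ended. Leaving out clone 2 replicate 1 ended those of CACNA1H, CACNB3, KCNF1, KCNH3, KCNJ12, KCNN3, SCN2B and TRPM4, and leaving out replicate 2 ended those of CACNB3, CACNG7, KCNAB2, KCNH5, KCNJ12, KCNJ4, KCNN2 and TRPM4. A clone 1 replicate decided CACNB3 (replicates 1 and 3), SCN2B (1 and 2), KCNAB2 (2 and 3), KCNJ4 (2), and KCNH3 and KCNJ12 (3).

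**Figure D5:**
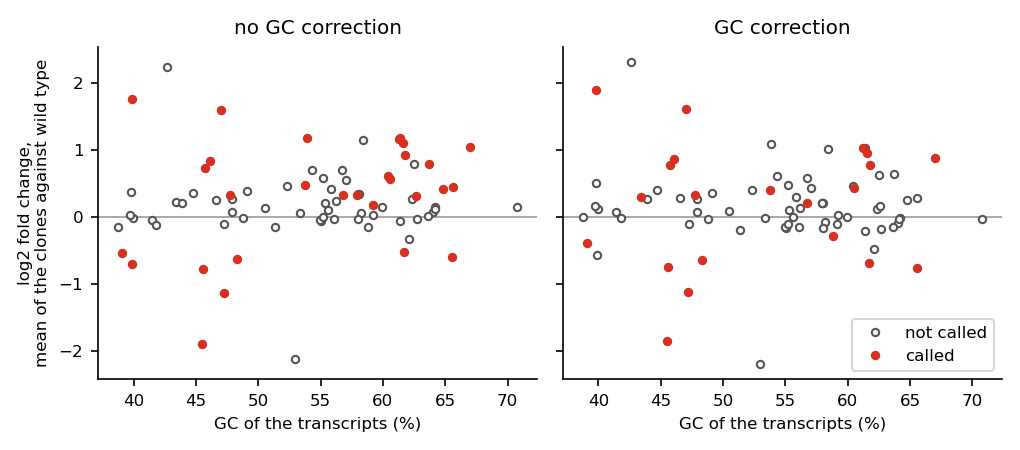
Log2 fold change of the 80 tested genes (mean of both clones against wild type) against the GC content of their transcripts in percent, without (left) and with (right) GC correction, with called genes filled. Most called genes above 60% GC lie above 0 without the correction, and 21 genes in place of 29 are called with it.

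The single-end pair gave a separate reading without replicates. Of the 29 called genes, 28 had a log2 ratio of the same sign there, 20 of the 21 higher and 8 of the 8 lower. Among all 77 tested genes with at least 20 counts in the pair, 56 had a positive ratio. The matching shares over all features were not computed, so these counts cannot show anything particular to channel genes. KCNN3 had 148 counts in the knockout and 51 in wild type, KCNMB4 404 and 210, and CACNA2D3 70 and 25.

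Of 78 partner genes and other channels found in the table (sodium pumps, scaffolds, calcium release channels, channel regulators and channels of other families), 56 were tested, 13 rose (against 9.87% of all features) and 6 fell (8.09%). Between the clones 2 of the 56 were called (against 2.09% of all features), FGF13 (-0.44, adjusted p = 0.00302) and RYR2, both lower in clone 2 (against 0.993%). Among those with small adjusted p, UNC79, part of the sodium leak channel complex, fell (log2 fold change -0.89, SE 0.12, adjusted p = 0.000203), as did the polycystin channel PKD2 (-0.38, adjusted p = 0.00127) and STAC, which binds L-type calcium channels (-0.48, adjusted p = 0.0013). RYR2, the calcium release channel of heart, was called in the mean (-0.68, adjusted p = 0.00114) and in clone 2 (-1.20, adjusted p = 0.000142), not in clone 1 (-0.17, adjusted p = 0.397), and the clones differed (-1.04, adjusted p = 0.00142). Those that rose were ABCC8, the sulfonylurea receptor that forms a channel with KCNJ11 (log2 fold change 0.80, SE 0.13, adjusted p = 0.0011), the acid-sensing channel ASIC3 (0.80, adjusted p = 0.00169), the volume-regulated anion channel subunit LRRC8E (0.41, adjusted p = 0.00199), the lysosomal channel TPCN1 (0.30, adjusted p = 0.000991) and the inositol trisphosphate receptor ITPR2 (0.35, adjusted p = 0.00237).

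Markers of other cell types were read in the same libraries. Of the neuronal list (8 genes, 5 tested), 2 were higher, SNAP25 (1.36, adjusted p = 0.0445) and TUBB3 (0.38, adjusted p = 0.000562). The 1 lower was SYT1 (-1.42, adjusted p = 2.85e-05). This list summed to 89.9 to 99.4 CPM in clone 1, 97.0 to 103 in clone 2 and 73.1 to 82.2 in wild type. The sum was mostly TUBB3, and STMN2 was at 0. The epithelial list (5 genes, 3 tested, KRT8 and KRT18 higher) had EPCAM not called against wild type in the mean (-0.09, adjusted p = 0.804) but lower in clone 2 than in clone 1 (-1.27, adjusted p = 0.00942), and CDH1 and KRT19 at 2 and 1 counts over the 8 libraries. It summed to 56.3 to 64.3 CPM in clone 1, 68.6 to 75.4 in clone 2 and 41 to 47.2 in wild type. The fibroblast list (6 genes, 1 tested, COL1A1 higher) summed to 18.6 to 22.3 CPM in clone 1, 26.2 to 26.7 in clone 2 and 13.2 to 14.1 in wild type, with COL1A2, DCN and LUM at 0. Of striated muscle (8 genes, 2 tested, ACTN2 lower), MYOD1, MYOG, TNNT2, MYH6 and MYH7 were at 0, and the list summed to 2.56 to 2.86 CPM in clone 1, 3.32 to 4.06 in clone 2 and 3.83 to 3.89 in wild type. The haematopoietic list (10 genes, 3 tested, KIT lower) was read because KBM-7 is a blood line. GATA1 and MPO were at 0, and PTPRC, CD34 and SPI1 averaged under 0.1 CPM in every group. The list summed to 26.7 to 31.9 CPM in clone 1, 24.8 to 30.6 in clone 2 and 27.2 to 31.7 in wild type. Most of that sum was RUNX1 and KIT. RUNX1 averaged 21.55 CPM in clone 1, 21.37 in clone 2 and 17.05 in wild type and was not called (0.34, adjusted p = 0.104). KIT averaged 8.05 CPM in clone 1, 5.80 in clone 2 and 12.71 in wild type (-0.90, adjusted p = 7.56e-06). The part of these markers, of GC content and of the sample numbers in the channel results was not tested beyond the corrections above, and in these bulk libraries more cells of a type and more RNA per cell cannot be told apart.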

How the data were processed

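RNA was measured in 8 paired-end and 2 single-end libraries of HAP1 cells. The deposited tables hold raw counts of reads per gene and repeat subfamily, whole numbers with no normalization. Alignment used STAR 2.5.2a and the build was GRCh38 (hg38), per the submitters' processing notes, and the name of the deposited tables gives TEToolkit as the counter. The kit marks strand, per the labels' protocols. Which strand setting and annotation release the counting used, and how it treated multiply aligned reads, was not given in the sources used here, so genes that overlap on either strand (69 of the 162 share exon bases with another gene) are uncertain to that extent. The 2 tables were used separately.

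Genes were tested with edgeR 4.0.16 (filterByExpr, TMM, robust quasi-likelihood F test, 1 mean for each of the 3 groups of paired-end libraries) in R 4.3.3, with Benjamini-Hochberg adjustment over 20747 features. The SE of a log2 fold change is its size over the root of F, and can be too small where a group has few counts. Ratios of few counts have exact 95% intervals. Single-end log2 ratios used a prior count of 2 and at least 20 counts in the pair. Symbols and coordinates came from GENCODE 29, merged exon lengths and GC content from its transcripts, and promoter windows from RefSeq. The GC correction removed a spline (5 degrees of freedom) of each library's deviation on GC, fitted on genes whose mean log2 CPM was 1 or more.

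Alternatives were RLE size factors, TMM from genes only, no count filter, DESeq2 1.42.0, a replicate block, the GC correction, a term for the sample-number block, all knockout libraries as 1 group, and each library left out. Sample numbers 1 to 5 alone was added after seeing the data. The code was checked on simulated data. No replicate was a copy of another (chi-square per degree of freedom 4.54 to 22.1). Members and lists were chosen with earlier results of these data known. Named with values are the genes called in the mean of the clones, between the clones or in 1 clone, the 10 highest in wild type per kilobase, and up to 10 called partners, apart from some genes that are in the totals but are not reported here by name. KCNE3, KCNMA1 and some uncalled members were named after their values were seen. A search of the proteins for the pore signature was planned and not done, because no protein table was used here.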

Additional observations from a re-analysis of the deposited data

Results flagged for a closer look

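The levels of 9 genes differed between the knockout clones, by edgeR's test of clone 2 against clone 1. The log2 differences, clone 2 over clone 1, were 6.28 for KCNJ2, 1.68 for SCN2B, 1.46 for KCNN3, 0.87 for SCN9A, 0.56 for KCNG3, 0.51 for KCNMB4, -0.43 for CACNA2D1, -0.56 for KCNK2 and -4.71 for KCNQ5. Clone 2 has 2 libraries, and the values for KCNJ2 and KCNQ5 rest on 1 and 4 counts in the lower clone. KCNJ2 and SCN2B were tested only because clone 2 is high. Differences of SCN9A, KCNK2, KCNN3 and KCNQ5 were called under all 17 alternatives, and that of KCNJ2 under all but sample numbers 1 to 5 alone (adjusted p = 0.0747). In the single-end pair, whose clone is not given, KCNJ2 had 29 counts in the knockout and 0 in wild type, and KCNQ5 had 3 and 33. Whether the differences came with the knockout or arose in single clones was not tested, and with 1 line per clone the effects of a clone and of its culture cannot be told apart.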

How the results depend on the processing

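The 29 calls in the mean of the clones became 19 with the sample-number term, 17 within sample numbers 1 to 5 (chosen after seeing the data), and 17 to 31 with 1 library left out, lowest without wild type replicate 1 (17) and replicate 2 (18). They were 21 to 34 under the other settings, with DESeq2 at 25 and no count filter at 34. The 19 of clone 1 became 11 within numbers 1 to 5 and 12 to 22 with 1 library left out (12 without wild type replicate 1). The 25 of clone 2 became 12 to 27 with 1 left out (13 and 15 without wild type replicates 1 and 2, 12 and 14 without clone 2 replicates 1 and 2). The 9 between the clones became 4 within numbers 1 to 5 and 5 to 9 with 1 left out (5 without clone 2 replicate 1, and 6 without clone 1 replicate 2). Within numbers 1 to 5 each clone has 1 library, assumed to vary like wild type. With the replicate block the 4 counts were 32, 24, 24 and 9. Same-numbered libraries correlated between -0.22 and 0.23 in their deviations (0.23 and 0.18 between the clones), not above 0.1 in every pair, so the numbers were not taken to pair them. Treating the knockout libraries as 1 group ended the mean calls of KCNQ5 (adjusted p = 0.895), KCNN3 (0.293) and KCNJ12 (0.0791). Of 26 calls described by gene 17 were lost under some alternative and 0 changed sign. Signs turned for 19 values of uncalled genes. With GC correction, and with it in the replicate block, these were CACNA2D1 (0.115 and 0.119), CLCN2 (-0.075 and -0.081), CLCN3 (0.072 and 0.061), CLCN6 (-0.017 and -0.009), CLCN7 (-0.014 and -0.001) and TRPM7 (0.001 and 0.007). The others were HCN3 in the block alone (0.003), CLCN6 with the sample-number term and within numbers 1 to 5 (-0.019 and -0.027) and CACNA2D1 with the knockout as 1 group (0.045). With 1 library left out CACNA2D1 ran from -0.074 to 0.018 and HCN3 from -0.085 to 0.031. At this depth 82 genes had too few counts to test, and KCNJ2, KCNQ5, SCN2B and KCNJ12 rest on few counts.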
